A study of Xenopus laevis with 3 samples.

Results

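The genes described here encode the structural proteins of cartilage and other extracellular matrix, together with integrins and cell surface proteoglycans that bind matrix. Members were *X. laevis* Probe Set IDs (Xl-PSIDs) with a single gene symbol in the platform's annotation that begins as those of the collagens, matrilins, link proteins, small leucine-rich proteoglycans, laminins, nidogens, fibronectin, tenascin, thrombospondins, fibrillins, fibulins, Gla proteins, integrins, syndecans, glypicans and related genes. The rule itself used symbols and no measured value, although it was set with earlier results of these data known. The rule found 122 of 32635 Xl-PSIDs, or 122 of the 15505 with 1 symbol, and they stood for 62 genes once the L and S homeologs were joined. The symbols *acan*, *comp*, *eln*, *postn*, *hspg2*, *agrn*, *fmod* and those beginning *chad*, *cilp* and *efemp* matched no Xl-PSID with a single symbol.

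The *s50* inner ears came from *X. laevis* larvae of stages 50 to 52, aged 15 to 21 days post-fertilization, for which the labels give no genotype and no treatment. Pools of 15, 38 and 24 animals were each hybridized to an array of their own, named s50_1, s50_2 and s50_3. The total RNA put into labelling was 1 µg for s50_1 and s50_2 and 0.7 µg for s50_3. Arrays of older animals were not analysed here, so each value describes a single stage, and no pool can be tested against the others. The authors deposited log2 intensities made with GCRMA, a method that corrects for background and normalizes between arrays, and values are given as mean ± SD over the 3 pools. An Xl-PSID was called detected where its mean was at least 4, the lowest average intensity that the methods accept for upregulation. Brightness also depends on the probes, so intensities of different Xl-PSIDs do not rank transcripts by abundance.

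The extracellular matrix of cartilage is a mesh of collagen II fibrils with collagen IX on their surface, filled with proteoglycans that hold water. Collagens I, III and VI belong to loose and fibrous connective tissue, whereas collagen IV, laminins and nidogens form the basement membranes on which epithelia rest. In vertebrates the inner ear is enclosed by an otic capsule that begins as cartilage. Cells attach to matrix through integrins, which pair an alpha with a beta subunit, and through syndecans and glypicans, which carry heparan sulfate chains at the cell surface.

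Transcripts of cartilage and connective tissue matrix were detected widely. Most integrin subunit Xl-PSIDs were not detected, although 8 of 14 integrin subunit genes were. Of the members, 89 of 122 Xl-PSIDs (73%) were detected, beside 73.3% of all Xl-PSIDs with 1 gene symbol and 64.8% of all Xl-PSIDs. By gene, with the brightest Xl-PSID standing for each, 51 of 62 (82.3%) were detected, beside 80.6% of all 9240 genes. These shares lay near those of the whole array. The median of the members was 8.74, beside 8.78 for all Xl-PSIDs with 1 symbol. The classes within the list differed, since 23 of 26 collagen Xl-PSIDs but 12 of 30 integrin subunit Xl-PSIDs were detected, with medians of 12.20 and 2.76. By gene the contrast was smaller, with 14 of 16 collagens (87.5%) and 8 of 14 integrin subunits (57.1%) detected. Among the 33 members not detected, 27 were below 3 on every array.

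**Figure D1:**
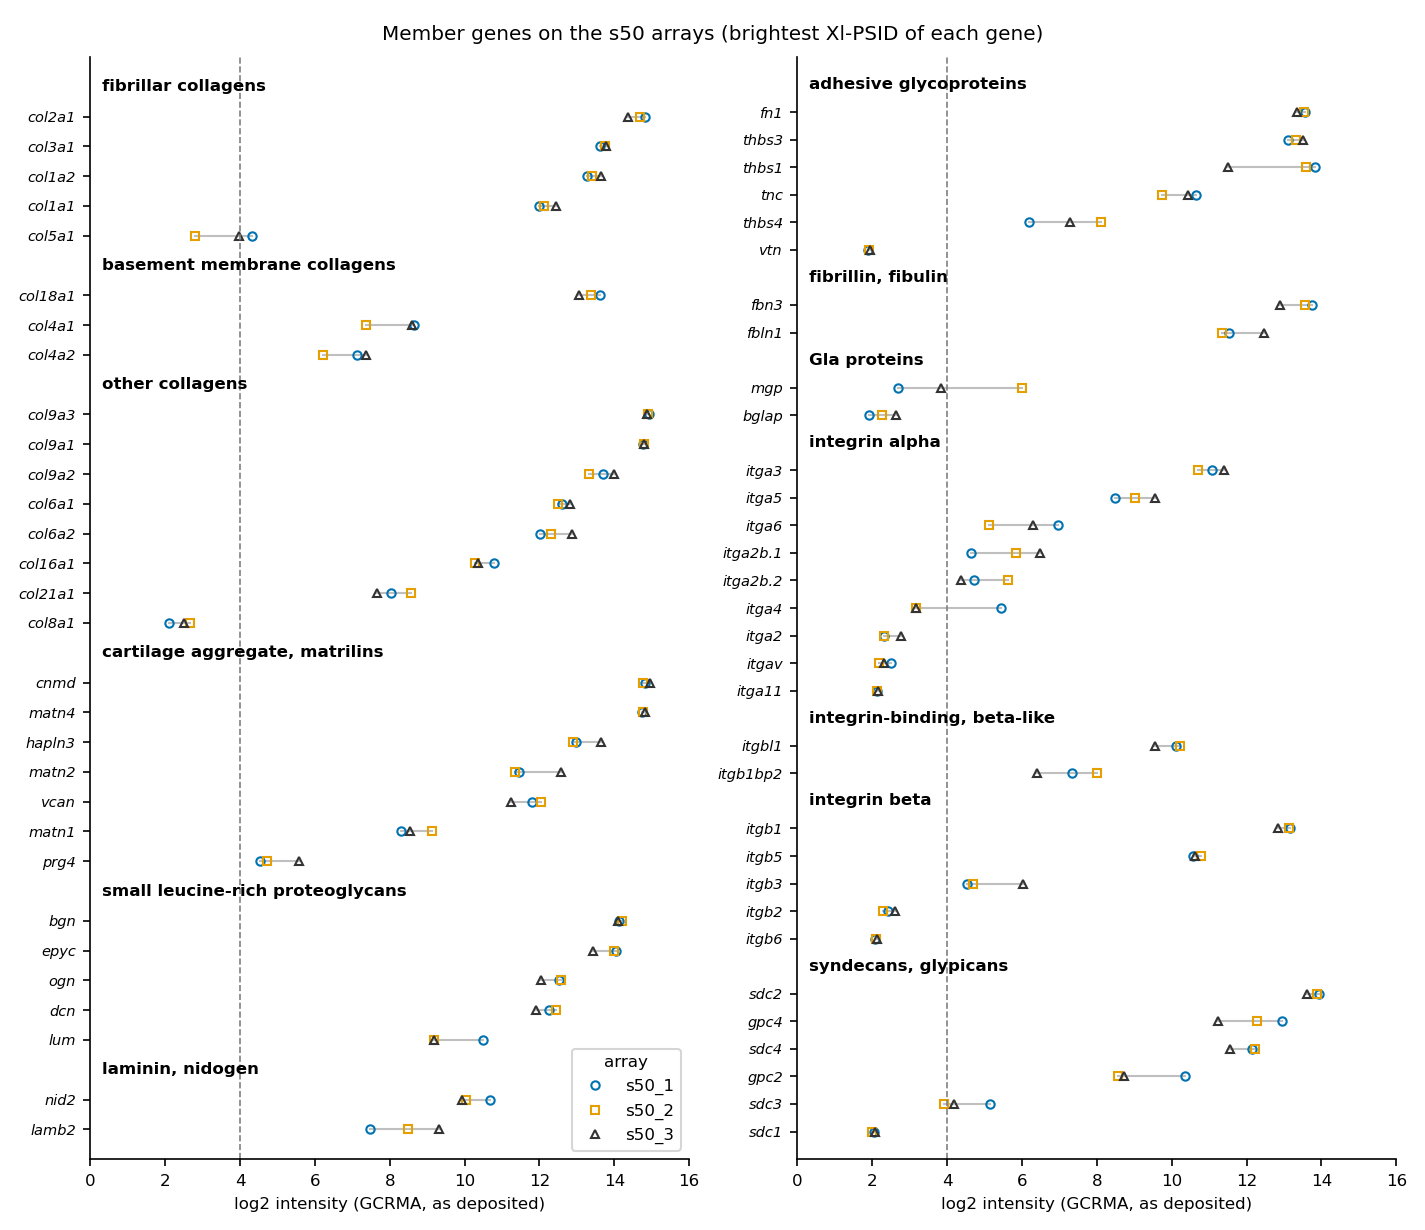
Log2 intensity of the brightest Xl-PSID of each of the 62 genes on the 3 *s50* arrays, ordered by role and with a dashed line at the detection threshold of 4. Collagens II and IX, *cnmd* and *matn4* lay above 13 on all arrays, while *col8a1*, *vtn*, *itga2*, *itgav*, *itga11*, *itgb2*, *itgb6*, *sdc1* and *bglap* lay below 3 on all of them.

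The collagens of cartilage differed little between pools. The Xl-PSID for *col2a1*, the main fibrillar collagen of cartilage, had 14.81, 14.69 and 14.37 on s50_1, s50_2 and s50_3. The chain gene *col9a1* had 14.76, 14.80 and 14.79 in the same order, and a further Xl-PSID under the older symbol *col9a1-b* had 14.22, 14.32 and 14.55. *col9a3* had 14.92, 14.90 and 14.87. The pools therefore lay within 0.06 of each other for *col9a1* and *col9a3*. *col9a2*, the remaining chain of collagen IX, had 13.71, 13.33 and 13.99. Over the 5 Xl-PSIDs of collagens II and IX the median SD was 0.17, beside 0.48 for all detected Xl-PSIDs. On the whole array too the spread was smaller at higher levels, with a median SD of 0.23 at means of 12 to 16, so a small SD at this level was shared by most Xl-PSIDs.

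Other genes known from cartilage and related matrix were detected on each array. The cells that their transcripts came from were not measured. The Xl-PSID of *cnmd.L*, chondromodulin, a cartilage protein that restrains the growth of blood vessels, had 14.83, 14.77 and 14.95 on s50_1, s50_2 and s50_3. *matn4*, an adaptor protein of the matrilin family that links matrix fibres, had 14.74, 14.75 and 14.81. The pools barely differed for both genes. *matn1*, named for cartilage matrix protein, had 8.29, 9.12 and 8.53, and the *matn2.L* Xl-PSID had 11.45, 11.34 and 12.58. The *matn2.S* Xl-PSID had 7.91, 9.45 and 10.01, so s50_3 was highest for both homeologs of *matn2*. *hapln3*, a link protein that fastens proteoglycans to hyaluronan, was detected with all 4 of its Xl-PSIDs. The most intense of them, for *hapln3.S*, had 12.98, 12.89 and 13.63. The *hapln3.L* Xl-PSID had 12.87, 13.30 and 12.35, so s50_3 was highest for the former and lowest for the latter. *prg4*, which encodes the joint lubricant lubricin, lay near the threshold at 4.53, 4.71 and 5.58.

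The large proteoglycan versican was represented by 5 Xl-PSIDs for *vcan.L*, and their intensities ran from the floor of the arrays to 11.69 ± 0.41. That Xl-PSID, whose ID marks probes that can match several transcripts, had 11.80, 12.04 and 11.23. Another had 10.07, 10.01 and 7.38 on s50_1, s50_2 and s50_3, the widest range among the members of this role. A further one had 8.59, 9.33 and 8.46, and the other two were not detected, at 2.97 ± 0.18 and 1.92 ± 0.01. The low value on s50_3 was therefore not seen to the same extent with the other detected Xl-PSIDs of the gene.

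The collagens of fibrous and loose connective tissue were detected on every array, mostly with the highest value on s50_3. The brightest Xl-PSID of *col1a1* had 12.19 ± 0.23, with its highest value on s50_3 (12.45), and that of *col1a2* had 13.26, 13.39 and 13.65 on s50_1, s50_2 and s50_3. These are the chains of collagen I, the collagen of bone, skin and tendon. *col3a1*, a collagen of distensible tissue, had 13.62, 13.76 and 13.78. *col6a1*, a chain of the beaded filaments of collagen VI, had 12.59, 12.50 and 12.83, and *col6a2* had 12.01, 12.32 and 12.86. Of the 9 Xl-PSIDs for collagens I, III and VI, a grouping made after the values were seen, 8 were highest on s50_3, beside 42.8% of all detected Xl-PSIDs. The exception was another Xl-PSID of *col1a1*, with 12.28, 12.13 and 10.86, so the Xl-PSIDs of that gene do not give a single direction. Several of the 9 Xl-PSIDs belong to the same gene, so their count is not one of independent genes. Set against the mean of the other arrays, their median difference was 0.39 on s50_3 and -0.26 on s50_1, beside 0.08 and -0.05 over all detected Xl-PSIDs. These differences were small, and the median SD of the 9 was 0.38. They also depended on single arrays, since the difference on s50_3 was 0.25 without s50_1, and that on s50_1 was -0.13 without s50_3 and -0.45 without s50_2.

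The summed intensities of several marker lists had s50_1 lowest and s50_3 highest, as 6 of the 9 Xl-PSIDs for collagens I, III and VI did. The skeletal muscle list, with 15 of 16 measured genes detected, had log2 summed intensities of 15.82, 16.84 and 16.95 on s50_1, s50_2 and s50_3, and 10 of the 15 had this order one by one. The melanocyte list, with 3 of 4 detected and *mitf* at the floor, had 14.11, 14.68 and 14.92, with this order in all 3. The epidermis list, with 7 of 13 detected and *tp63*, *grhl1* and *itln1* at the floor, had 15.58, 15.65 and 15.89, but only 3 of the 7 had the order, and *dsp* was highest on s50_1. The bone list had 9.96, 10.38 and 10.98, a sum carried by *alpl*, while *smpd3* had the reverse order. Of all 7452 detected genes, 2656 had this order, and so did 6611 of all 21156 detected Xl-PSIDs. Whether tissue beside the ear had a part in the collagen values was not tested. In RNA from a whole organ, fewer cells of a type and less RNA per cell cannot be told apart.

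Other members of the collagen family ranged from the floor to well above it. *col16a1* had 10.77, 10.29 and 10.37 on s50_1, s50_2 and s50_3 with its brighter Xl-PSID, and *col21a1* had 8.04, 8.57 and 7.66. Both encode collagens that associate with fibrils without forming them. *col5a1*, a chain of collagen V that limits the width of fibrils, had 4.31, 2.79 and 3.98 and was not detected by its mean of 3.69 ± 0.80. The short-chain collagen gene *col8a1* was not detected with either of its Xl-PSIDs, at 2.42 ± 0.29 and 1.87 ± 0.01.

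Both chains of collagen IV had their lowest value on s50_2 with every Xl-PSID. The brighter Xl-PSID of *col4a1* had 8.64, 7.37 and 8.60 on s50_1, s50_2 and s50_3, whereas the other had 6.85, 5.61 and 6.68. For *col4a2* the values were 7.12, 6.23 and 7.36 with the brighter Xl-PSID and 5.36, 4.31 and 5.38 with the other. In all 4, s50_1 and s50_3 lay close together and s50_2 stood below both. The median difference of s50_2 from the mean of the others was -1.11, beside 0.05 over all detected Xl-PSIDs, of which 21.5% were lowest on s50_2. These chains are assembled together into the network of basement membranes, and *col4a1.L* and *col4a2.L* are neighbours in the RefSeq annotation with no coding gene between them. Both Xl-PSIDs of a gene share a source sequence, so the 4 are not independent measurements. Grouping collagen IV without *col18a1*, which has the same role, was not planned, nor was the group of collagens II and IX. Over all 6 Xl-PSIDs of the role, the median difference of s50_2 was -1.04, and 4 were lowest on s50_2.

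The other basement membrane genes did not have this order of arrays. *col18a1*, which encodes the precursor of endostatin, had 13.61, 13.39 and 13.06 for the L homeolog and 12.94, 12.99 and 12.30 for S. Both were lowest on s50_3. *lamb2*, a laminin beta chain, had 7.48, 8.48 and 9.32, with s50_3 highest. *nid2*, which joins laminin to collagen IV, had 10.67, 10.04 and 9.93, the opposite order. The endothelium list, which stands for blood vessels with their own basement membranes, had log2 summed intensities of 12.98, 12.70 and 12.53, with 3 of 4 genes detected and *flt1* not detected (2.55 ± 0.80).

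All 8 Xl-PSIDs for small leucine-rich proteoglycans, which bind collagen fibrils and control their spacing, were detected. They stood for 5 genes, and 73.3% of all Xl-PSIDs with 1 gene symbol were detected. Biglycan, *bgn*, had 14.12, 14.22 and 14.10 on s50_1, s50_2 and s50_3 for the L homeolog and 12.79, 13.17 and 13.44 for S. Decorin, *dcn*, had 12.26, 12.45 and 11.90 for L and 7.33, 8.21 and 7.03 for S. Osteoglycin, *ogn*, had 12.53, 12.58 and 12.05 for L and 6.48, 6.96 and 7.85 for S. Both homeologs of *dcn* were lowest on s50_3, whereas *bgn.S* and *ogn.S* were highest there. *epyc*, the cartilage proteoglycan epiphycan, had 13.83 ± 0.34, with its lowest value on s50_3 (13.44). Lumican, *lum*, had 10.50, 9.18 and 9.17, so s50_1 stood above the others. With the brightest Xl-PSID of each gene, all 5 genes were lowest on s50_3, beside 2615 of all 7452 detected genes. For *bgn* and *lum* the next array lay very close, at 14.12 against 14.10 and 9.18 against 9.17. The median difference of the 5 on s50_3 was -0.50, beside 0.10 over all detected genes. Over Xl-PSIDs, 6 of 8 were lowest on s50_3, beside 36.2% of all detected Xl-PSIDs. No Xl-PSID of this role had a range of 1.5 or more. *lum.L* and *dcn.L* are neighbours in the RefSeq annotation, but s50_1 was highest for *lum* and s50_2 for *dcn*.

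Fibronectin and the thrombospondins, adhesive glycoproteins that bridge cells and fibres, were detected along with tenascin. *fn1* had 13.57, 13.53 and 13.36 with its brightest Xl-PSID, and 12.94 ± 0.17 and 12.88 ± 0.25 with the next. The remaining Xl-PSID was at the floor with 1.94 ± 0.01. The pools hardly differed for the detected ones. *thbs1.S* had 13.82, 13.59 and 11.51 on s50_1, s50_2 and s50_3, and its other Xl-PSID had 8.86, 6.96 and 5.52. Both were highest on s50_1 and lowest on s50_3, but s50_2 lay close to s50_1 only with the brighter. The IDs of both mark probes that can match several transcripts, while *thbs1.L* was at the floor (1.92 ± 0.01). *thbs3* had 13.10, 13.32 and 13.52 and, with its other Xl-PSID, 7.90, 8.58 and 9.60, so here s50_3 was highest. The *thbs4.L* Xl-PSID had 6.20, 8.10 and 7.29, and *thbs4.S* had 3.72, 5.50 and 5.58, with s50_1 lowest for both. Thrombospondin 4 is abundant in tendon and muscle of mammals, and the muscle list above was lowest on s50_1 as well. Whether muscle had a part in the *thbs4* values was not tested.

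Tenascin C, *tnc*, a glycoprotein of developing connective tissue, had 10.65, 9.75 and 10.44 on s50_1, s50_2 and s50_3 with its brighter Xl-PSID and 8.63 ± 0.54 with the other. Both were highest on s50_1. Vitronectin, *vtn*, an adhesive protein that the liver secretes into plasma, was at the floor with 1.92 ± 0.03. The microfibril gene *fbn3*, a fibrillin, had 13.76, 13.55 and 12.89. *fbln1*, which encodes a fibulin of elastic fibres and basement membranes, had 11.54, 11.36 and 12.47 with one Xl-PSID and 11.05, 11.61 and 11.37 with the other, so no array was highest in both.

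The Gla protein genes *mgp* and *bglap*, whose products bind mineral, were near or below the threshold. *mgp*, matrix Gla protein, an inhibitor of calcification, had 2.70, 6.01 and 3.84 on s50_1, s50_2 and s50_3, the largest SD of all detected members (1.68). Its call as detected rested on s50_2, and the mean of the other arrays was 3.27. Osteocalcin, *bglap*, a protein of bone matrix, was not detected, with 1.91, 2.27 and 2.63. Of the other bone genes measured, *sp7*, a regulator of bone-forming cells, was at the floor (1.81 ± 0.01), and *alpl* (10.29 ± 0.63) and *smpd3* (6.47 ± 1.03) were detected.

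Integrin transcripts were detected for a part of the subunits. The beta 1 subunit, which pairs with most alpha chains that bind matrix, had 13.16, 13.14 and 12.84 with the brightest *itgb1.L* Xl-PSID. It had 11.60, 10.63 and 11.41 with *itgb1.S*, and 5.48, 3.94 and 3.96 with a further *itgb1.L* Xl-PSID. *itgb5*, a partner of alpha V, had 10.55, 10.79 and 10.62 with its brightest Xl-PSID. Another had 8.83, 10.03 and 10.12, and the remaining one was at the floor (1.86 ± 0.01). Alpha V itself, *itgav*, was not detected, at 2.33 ± 0.15 with a single Xl-PSID. The laminin receptor genes *itga3* and *itga6* had 11.07, 10.69 and 11.39, and 6.97, 5.11 and 6.30, with the brightest Xl-PSID of each. The other *itga6* Xl-PSID was not detected (3.06 ± 0.99). *itga5*, the fibronectin receptor, had 8.47, 9.01 and 9.55 with one *itga5.L* Xl-PSID and 9.88, 8.23 and 7.43 with another. These are opposite orders of the pools for 1 gene, so no order can be given for *itga5*.

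The collagen-binding alpha subunits measured were not detected. *itga2* had 2.47 ± 0.26 and *itga11* had 2.13 ± 0.02 with the brighter of their Xl-PSIDs. The Xl-PSIDs of each gene share a source sequence, so each call rests on that sequence alone. Not detected either were *itgb6* (2.10 ± 0.02), an integrin subunit of epithelia, and *itgb2* (2.43 ± 0.17), the beta subunit of leukocytes. The *itga4* Xl-PSID had 5.45, 3.18 and 3.17, with s50_1 alone above the threshold and a mean just under it (3.93 ± 1.31). The leukocyte list had 7 of 8 measured genes detected, but *ptprc*, which is found on nearly all leukocytes, was at the floor (2.03 ± 0.04). The subunits of the platelet receptor lay near the threshold. *itga2b.1* had 4.63, 5.83 and 6.49, *itga2b.2* had 4.71, 5.63 and 4.36, and their partner *itgb3* had 4.52, 4.68 and 6.01.

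Among proteins named for integrins without being subunits, *itgbl1*, an integrin beta-like protein, had 10.11, 10.22 and 9.56 on s50_1, s50_2 and s50_3. *itgb1bp2*, melusin, a protein of muscle that binds the beta 1 subunit, had 7.24 ± 0.80 with one Xl-PSID and was at the floor with the other (1.92 ± 0.01). It was lowest on s50_3 (6.41), unlike the skeletal muscle list.

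Xl-PSIDs of syndecans and glypicans were mostly highest on s50_1 and lowest on s50_3. Their median SD was 1.02, beside 0.48 for all detected Xl-PSIDs, and 0.65 with the brightest Xl-PSID of each gene, beside 0.44 for all detected genes. *sdc2.S* had 13.93, 13.87 and 13.63 on s50_1, s50_2 and s50_3 with its brightest Xl-PSID, 11.72, 10.09 and 8.54 with another and 9.60, 7.88 and 7.30 with the remaining one. *sdc2.L* had 12.66, 11.92 and 11.49 with its brightest. In each of these s50_1 was highest and s50_3 lowest, although the range over the arrays was 0.30 with the brightest *sdc2.S* Xl-PSID and 3.18 with another. A further *sdc2.L* Xl-PSID had 12.01, 11.46 and 11.74, with s50_2 lowest. *sdc4.L* had 12.15, 12.22 and 11.57 with one Xl-PSID and 9.98, 8.73 and 7.37 with another, and *sdc4.S* had 7.78, 7.10 and 5.32. *sdc3* had 5.14, 3.91 and 4.17 and lay close to the threshold. *sdc1*, the syndecan of mammalian epithelia, was at the floor with both of its Xl-PSIDs (2.03 ± 0.04 and 1.85 ± 0.01).

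*gpc4*, a glypican that binds growth factors, had 12.93, 12.28 and 11.25 on s50_1, s50_2 and s50_3 with its brightest Xl-PSID. Its other 3 Xl-PSIDs had 10.77, 9.67 and 8.17, then 10.53, 9.62 and 8.19, then 9.97, 9.43 and 7.94. All 4 ordered the arrays alike. *gpc2*, a glypican of the developing nervous system in rodents, had 10.37, 8.57 and 8.71. Of the 14 detected Xl-PSIDs of syndecans and glypicans, 13 were highest on s50_1 and 11 were lowest on s50_3, beside 33.8% and 36.2% of all detected Xl-PSIDs. Against the mean of the other arrays, they had a median difference of 1.43 on s50_1 and -1.40 on s50_3, beside -0.05 and 0.08 over all detected Xl-PSIDs. With the brightest Xl-PSID of each of the 5 detected genes, the medians were 1.10 and -0.62. The Xl-PSIDs belong to only 5 detected genes, so the count is not one of independent genes.

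The summed intensity of the neuron list was also highest on s50_1 and lowest on s50_3. Of its 12 measured genes 11 were detected, with log2 summed intensities of 16.23, 15.84 and 15.37 on s50_1, s50_2 and s50_3, but only 4 of the 11 had this order and *nefl* had the reverse. Its defining marker *elavl3* was not detected by its mean, with 5.86, 2.59 and 2.92. The endothelium sums had this order through *egfl7*, while *pecam1* had the reverse and *tek* was highest on s50_2. The sums of the supporting cell list (15.26, 15.18 and 14.89) and the integrin adhesion list (16.42, 16.27 and 15.93) had it too. So did those of other matrix receptors (15.01, 14.74 and 14.42) and of cartilage regulators (14.98, 14.82 and 14.54). One by one, it held for 2 of 4, 6 of 18, 3 of 7 and 5 of 11 detected genes of these lists. The reverse order held for 1, 3, 0 and 1 of them. The order was found in 10 of the 14 syndecan and glypican Xl-PSIDs and in 4992 of all 21156 detected ones. With the brightest Xl-PSID of each gene it was found in 2 of the 5 detected genes, beside 1557 of all 7452. Less RNA went into the labelling of s50_3. The part of these in the syndecan and glypican values was not tested. Without s50_3, the median difference of s50_1 from s50_2 for these Xl-PSIDs was 0.82, and without s50_1 that of s50_3 from s50_2 was -0.84.

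**Figure D2:**
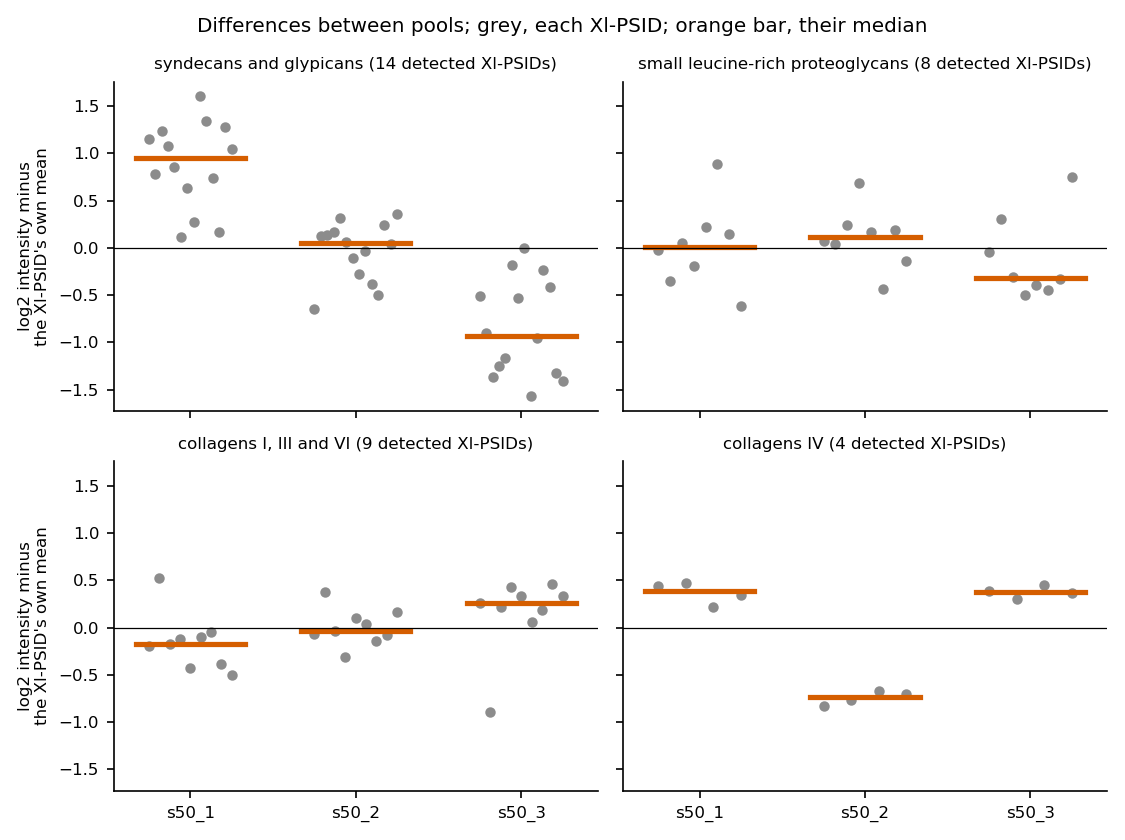
Log2 intensity minus the mean of the same Xl-PSID, for each detected Xl-PSID of 4 groups of members on the *s50* arrays (grey points), with the median of the group (orange bar). Points of syndecans and glypicans lie above 0 on s50_1 in each case and below 0 on s50_3, but for an *sdc2.L* Xl-PSID at 0, while those of collagens IV lie below 0 on s50_2 only.

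Taken over all levels together, differences between pools were about as common among the members as on the whole array. Of the 89 detected, 24 had a range of at least 1.5 (27%), beside 26.5% of all detected Xl-PSIDs, and the median SD was 0.48 for both. Of these 24, 9 were syndecan or glypican Xl-PSIDs, 5 were thrombospondin Xl-PSIDs, and 1 was a collagen Xl-PSID. The shares differed by level, and 33 of the 89 had means of 12 to 16, beside 3074 of all 21156. At means of 8 to 10, 11 of 21 members had such a range (52.4%), beside 29.4% of all. The shares were 50% beside 54.9% at 4 to 6 and 55.6% beside 44.6% at 6 to 8. They were 6.25% beside 14.4% at 10 to 12 and 6.06% beside 3.74% at 12 to 16. On s50_1, 10 members lay at least 1.5 above the mean of the others (11.2%), beside 7.96% of all detected Xl-PSIDs. On s50_3, 10 lay at least 1.5 below it (11.2%), beside 9.2%, and none lay that far above it, beside 4.9%. On s50_2 a single member, *mgp*, lay that far above the others, beside 2.04%. Of the 89, 28 were lowest on s50_1, beside 42.3% of all detected Xl-PSIDs. The members had median differences of 0.12, 0.06 and -0.07 on s50_1, s50_2 and s50_3, all small beside their median SD.

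**Figure D3:**
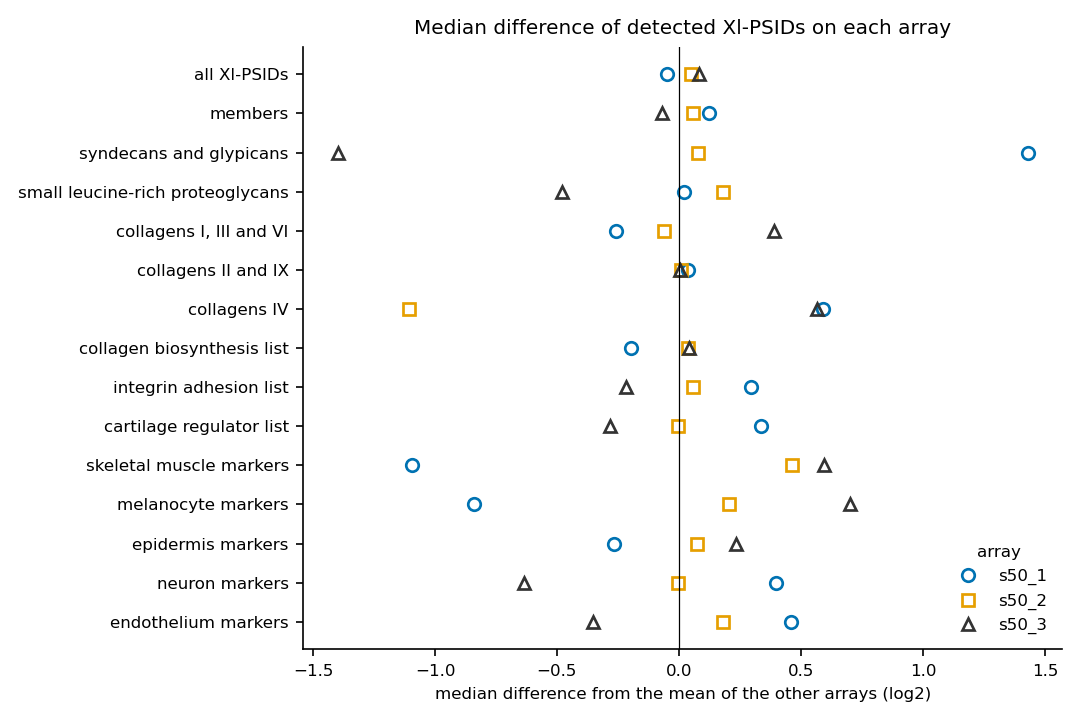
Median difference of detected Xl-PSIDs from the mean of the other arrays on the log2 scale, for the members, their groups, related gene lists and marker lists, with a symbol for each array. Syndecans and glypicans reach 1.43 on s50_1 and -1.40 on s50_3, collagens II and IX stay close to 0, and skeletal muscle markers lie at -1.09 on s50_1.

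Different Xl-PSIDs of the same gene could disagree on whether it was detected. Of the 37 genes with 2 or more Xl-PSIDs, 12 had both detected and not detected ones (32.4%), beside 32.6% of such genes on the whole array. *itga3*, for example, had 11.05 ± 0.35 with one Xl-PSID and 1.95 ± 0.02 and 1.83 ± 0.01 with the others. Of the members whose gene had a detected Xl-PSID, 15 of 104 were not detected (14.4%), beside 13.2% on the whole array. Among pairs of detected Xl-PSIDs of 1 gene, the same array was highest in 36 of 55 (65.5%), beside 59.5% on the whole array, and the same array was lowest in 35 of 55 (63.6%), beside 57.5%. A call of not detected for a gene with a single Xl-PSID, such as *itgav*, *vtn*, *bglap* or *col5a1*, thus rests on those probes alone. For *itga2*, *itga11* and *itgb6*, all Xl-PSIDs of the gene share a source sequence, so these calls are limited in a like way.

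**Figure D4:**
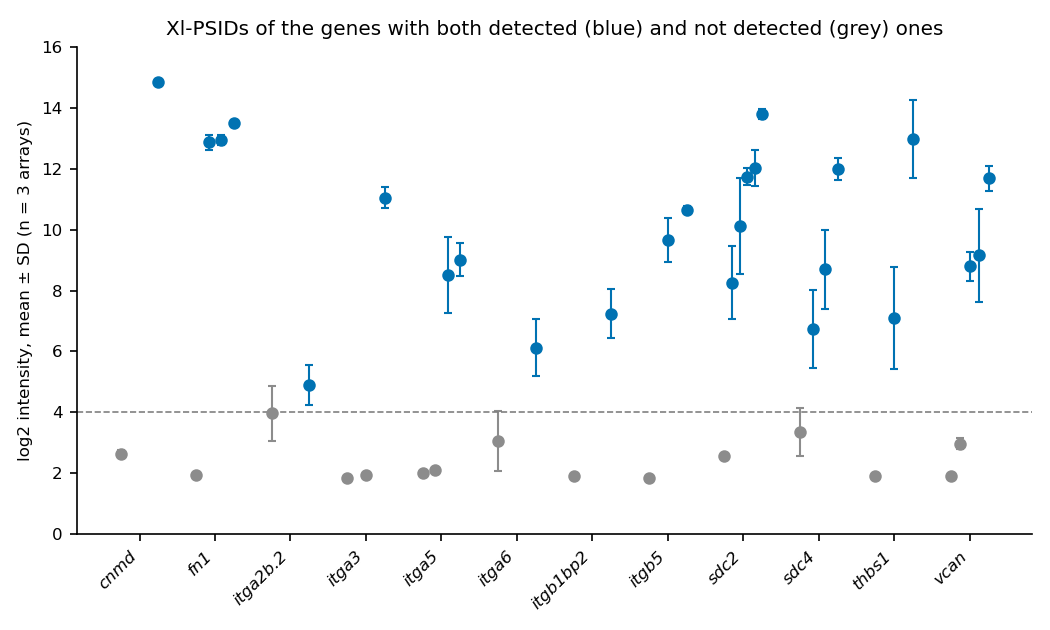
Mean ± SD of log2 intensity over the 3 *s50* arrays for each Xl-PSID of the 12 member genes that have detected (blue) and not detected (grey) ones, with a dashed line at the threshold of 4. In *cnmd*, *fn1*, *itga3*, *sdc2*, *thbs1* and *vcan* the Xl-PSIDs of 1 gene span from about the floor to above 11.

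*X. laevis* is allotetraploid and carries an L and an S homeolog of many genes. Both homeologs had an Xl-PSID for 13 member genes, and both were detected for 10 of them. For *cnmd* the L Xl-PSID had 14.85 ± 0.09 and the S Xl-PSID 2.64 ± 0.13, for *thbs1* only S was detected, and for *itga5* only L. Whether such a contrast lies in the homeologs or in the probes cannot be told apart with these arrays. In 4 of the 10 genes with both detected, *dcn*, *itgb1*, *matn2* and *sdc2*, the brightest Xl-PSIDs of L and S were highest on the same array. Shares for homeolog pairs of the whole array were not calculated, so these counts cannot be called high or low.

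Genes that build and crosslink collagen were detected nearly throughout. Of the 23 measured genes of that list, 21 were detected (91.3%), beside 80.6% of all genes. The median of the 23 was 12.13, beside 9.64 for all genes, each by its brightest Xl-PSID. *sparc*, a collagen-binding glycoprotein, had 14.61, 14.66 and 14.63, and *fkbp10* and *ppib*, prolyl isomerases that help collagen fold, had 13.99 ± 0.11 and 13.95 ± 0.18. The chaperone gene *serpinh1* had 10.90, 11.62 and 12.49 on s50_1, s50_2 and s50_3, the order of 6 of the 9 Xl-PSIDs for collagens I, III and VI. *lox*, which crosslinks collagen, had 7.72, 6.11 and 3.70, the reverse. *lox* and *serpinh1* were chosen after their values were seen.

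Among regulators and other genes of cartilage, 11 of 13 measured were detected (84.6%), near the 80.6% of all genes. *ucma*, a Gla protein of cartilage, had 13.41, 13.27 and 13.14, *sox9*, the regulator of chondrocyte fate, had 13.37, 13.18 and 12.61, and *papss2*, which supplies sulfate for proteoglycans, had 12.45, 12.59 and 11.63. All had their lowest value on s50_3. *sox9* is also active in otic epithelium, so it does not mark cartilage alone. The signal gene *ihh* of the growth plate was at the floor (1.93 ± 0.02).

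A list of integrin adhesion genes held proteins that link integrins to actin, kinases and tetraspanins. Of its 19 measured genes 18 were detected (94.7%), beside 80.6% of all genes. The tetraspanins *cd9* and *cd81*, which associate with integrins, had 14.45, 14.38 and 13.43, and 13.86, 13.72 and 13.47. *rsu1*, a partner of the integrin-linked kinase complex, had 13.14, 13.22 and 13.19. Vinculin, *vcl*, was not detected (2.80 ± 0.05). All 7 measured genes of other matrix receptors were detected, among them *ptprf* (12.68 ± 0.12), the collagen receptor *ddr1* (12.83, 12.54 and 11.68) and the laminin receptor *bcam* (11.99 ± 0.30).

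Against markers of the inner ear, 3 of 3 measured hair cell genes and 4 of 4 measured genes of supporting cells and acellular membranes were detected. Over the whole array 80.6% of genes were detected. Most measured markers of skeletal muscle, pigment cells, nerve, Schwann cells and red blood cells were detected too. The values of members therefore cannot be assigned to sensory epithelium or cartilage, and which tissues gave the RNA was not tested. The medians of all Xl-PSIDs on the arrays lay between 7.45 and 7.53, and 12 control probe sets for bacterial transcripts had means between 1.90 and 2.0, which marks the floor.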

How the data were processed

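Inner ear RNA of *s50* larvae was labelled and hybridized to 3 Affymetrix *X. laevis* arrays, one for each pool. Background correction and normalization by GCRMA were done by the authors, who used JMP Genomics. The deposited log2 intensities of 32635 Xl-PSIDs were taken without further normalization. The sources used here do not say which arrays were normalized together. Symbols came from the platform's annotation, in which 15505 Xl-PSIDs had 1 symbol, 279 several and 16851 none. The gene identifiers of 121 of the 122 members were found in the RefSeq table, with the same symbol. No sequences or coordinates are given.

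Members and lists were chosen with earlier results of these data known. With 3 arrays in a single condition no test was possible, and their number limits the precision. Values are counts, means ± SD, medians over Xl-PSIDs and, for marker lists, the log2 of the summed linear intensities of each gene's brightest Xl-PSID. A detection threshold of 4 and a difference of 1.5 were used. Genes named are, for each role, the 4 brightest and those not detected, the 10 most variable detected members, the 5 with the most Xl-PSIDs, members that the paper names and the 3 brightest of each pathway list. The other members named, and the assignment of *itgbl1* to a role, were chosen after the values were seen. Alternatives were detection at 3, 5 or 6, detection on each array separately, medians, quantile normalization, ranges of 1 and 2, other choices of Xl-PSIDs and leaving out each replicate. Calculations were made in Python 3.11.15 with pandas 2.3.3 and tested on simulated data.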

Additional observations from a re-analysis of the deposited data

How the results depend on the processing

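The number of members detected lay between 73 and 94 under all alternatives, against 89, and that of genes between 47 and 53, against 51. The 73 came from leaving out the 20 members whose IDs mark shared probes, so fewer Xl-PSIDs were counted there. Leaving out a replicate gave 89 to 91 Xl-PSIDs and 51 to 52 genes. The median level of the members was 10.38 with the brightest Xl-PSID of each gene, against 8.74. The number of detected members with a range of at least 1.5, which was 24, became 42 with a range of 1 and 13 with a range of 2, and it was 9 to 20 without a replicate, with 9 without s50_1, 20 without s50_2 and 12 without s50_3. Leaving out an array narrows a range by construction. *mgp* was not detected without s50_2, by the median, at a threshold of 5 or on every array. The number of fibrillar collagen genes detected was 2, against 4, without Xl-PSIDs whose IDs mark shared probes, since *col1a1* and *col2a1* have no others, and that of the laminin and nidogen genes was 1, against 2. Median differences between arrays moved by less than the spread between replicates, which was the median SD of the same Xl-PSIDs. Leaving out an array cannot, by construction, move the difference of an Xl-PSID by more than its SD over these arrays. For left-out replicates this comparison therefore cannot show whether the differences are robust. Some median differences changed sign or size. Without s50_3, that of all members went from 0.06 to -0.02 on s50_2 and from 0.12 to 0.02 on s50_1, that of small leucine-rich proteoglycans from 0.02 to -0.14 on s50_1, that of collagens I, III and VI from -0.06 to 0.13 on s50_2 and that of syndecans and glypicans from 0.08 to -0.82 on s50_2. Without s50_2, that of collagens IV was 0.02 on s50_1 and -0.02 on s50_3. Alternatives for single genes, roles and groups were added after seeing the data. No paired analysis was possible because the series has a single group. Values near 2 lie at the floor of the arrays, where small differences between arrays were not interpreted.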
